A study of Caenorhabditis elegans with 2 samples.

Results

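Peaks of GFP-tagged UNC-86 at transfer RNA (tRNA) genes were described by the amino acid the gene serves, its place in the genome and the sequence around it. A peak was taken as a member when its summit lay within 300 bp of the midpoint of a gene annotated as tRNA, and 343 of the 12784 peaks of the pooled list met this rule. The rule uses positions and no signal value. The chromatin came from whole hermaphrodites of the Caenorhabditis elegans strain called OP476, with the mutation unc-119(tm4063) III and the transgene wgIs476, taken as late embryos 3.5 hours after synchronization by egg bleaching. The integrated transgene wgIs476 makes UNC-86 with a GFP-FLAG tag at its C-terminus, and both samples carry it together with the unc-119 mutation. The DNA was fragmented by sonication, and the precipitation used an antibody against GFP per the sample description, although the antibody field of the labels names unc-86 itself. The 2 samples are biological replicates of this 1 group of one transgenic line, so no comparison between groups exists. A control alignment entered the authors' peak calls, and no untagged strain was analysed here. UNC-86 is a POU homeodomain factor of neurons, and in chromatin of the whole organism few cells with much binding and many cells with little cannot be told apart.

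A tRNA gene is transcribed by RNA polymerase III from a promoter that lies inside the gene. The A box, in the part that becomes the D arm, and the B box, in the part that becomes the T arm, are bound by the factor TFIIIC, which places TFIIIB with the TATA-binding protein just upstream of the start. Transcription ends at a run of T soon after the gene. C. elegans has many identical copies of most tRNA genes, many of them on the X chromosome and many inside introns of protein-coding genes.

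The following genes show the parts that the results refer to. They are the gene under the strongest member peak, which encodes a leucine tRNA and has an intron of its own, the alanine tRNA gene of highest signal and 1 of 11 identical histidine tRNA genes. Sequences are those of RefSeq assembly WBcel235, which is the ce11 build, read 5′ to 3′ on the gene's strand, with the A box and the B box in capitals.
C04A11.t1, Leu, anticodon CAA, chrX:13665555-13665673, plus strand: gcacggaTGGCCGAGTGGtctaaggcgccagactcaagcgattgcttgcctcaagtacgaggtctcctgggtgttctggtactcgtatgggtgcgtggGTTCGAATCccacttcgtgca
F15G9.t1, Ala, anticodon TGC, chrX:9743589-9743660, plus strand: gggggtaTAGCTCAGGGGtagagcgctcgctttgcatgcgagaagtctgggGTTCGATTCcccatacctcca
C06G1.t1, His, anticodon GTG, chrX:16634830-16634901, minus strand: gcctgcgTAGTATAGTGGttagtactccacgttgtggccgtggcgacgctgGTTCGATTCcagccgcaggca
The B box was searched as its core GTTCGANNC, where N is any base, and the A box by its usual consensus.

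The 11 identical histidine tRNA genes differ only in what surrounds them, so their flanks show what the gene itself cannot. The 60 bases before the 5′ end are given for the 2 copies with a peak past the authors' reproducibility threshold, C06G1.t1 and W09G10.t1, for 1 of the 3 with a weaker peak, C49F5.t1, and for 3 of the 6 copies of the F28H6 cluster, where no peak was listed. Capitals mark the word CTCT, to which the comparison of flanks returns.
C06G1.t1, upstream, chrX:16634902-16634961, minus strand: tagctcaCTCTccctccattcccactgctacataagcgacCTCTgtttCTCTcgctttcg
W09G10.t1, upstream, chrII:3521559-3521618, minus strand: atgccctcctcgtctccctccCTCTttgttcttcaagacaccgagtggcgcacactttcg
C49F5.t1, upstream, chrX:11993593-11993652, minus strand: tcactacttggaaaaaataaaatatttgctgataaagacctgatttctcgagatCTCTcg
F28H6.t2, upstream, chrX:14134985-14135044, plus strand: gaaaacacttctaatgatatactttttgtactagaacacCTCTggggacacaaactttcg
F28H6.t3, upstream, chrX:14135814-14135873, plus strand: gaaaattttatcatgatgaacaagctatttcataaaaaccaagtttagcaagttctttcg
F28H6.t7, upstream, chrX:14135380-14135439, minus strand: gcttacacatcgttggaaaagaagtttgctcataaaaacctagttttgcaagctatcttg
The GC content of these 60 bases was 51.7% at C06G1.t1 and 56.7% at W09G10.t1. It ran from 33.3% at C49F5.t1 over 41.7% at Y65A5A.t4 to 55% at Y7A9D.t1 in the 3 copies with a weaker peak, so Y7A9D.t1, with a signal of 28.8, had a weaker peak only at a GC content above that of C06G1.t1. In the 6 copies of the cluster it lay between 28.3% and 43.3%. The upstream bases of F28H6.t3 and F28H6.t7 are repeated exactly at F28H6.t4 and F28H6.t6, and 4.06% and 37.5% of the 30-base words in the 300-base flanks of F28H6.t3 and F28H6.t7 are unique in the genome. The part of these repeats in the missing peaks was not tested. At F28H6.t2 81.4% of them are unique. The peak at C06G1.t1 had a signal of 199 in the pooled list and that at W09G10.t1 131. The peak at C49F5.t1 had 33.1, close to the median of the whole pooled list, 31.8.

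The deposited lists give a signal value and a −log10 q value for each peak, both from the authors' peak caller, and the signal is used here only to rank and describe peaks within a list. The pooled list was made from both replicates together. Its 816 peaks past the threshold of the irreproducible discovery rate (IDR) form the IDR list, and peaks of the pooled list outside it are called weaker peaks. The pooled list holds peaks and background, and its median −log10 q value is 0.0757. At tRNA genes the weaker peaks had a median of 0.222, so a weaker peak may be background and does not show binding by itself. The lists of replicate 1 and replicate 2 held 17498 and 18470 peaks. The read depth is unknown, and intervals given with shares are 95% Wilson intervals that cover counting error over genes or peaks only.

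Peaks at tRNA genes were concentrated at the strong end of the list. The windows of 300 bp to each side of the tRNA midpoints cover 0.338% of the 6 nuclear chromosomes and held 2.68% of the pooled peaks and 18.1% of the IDR peaks. Of the 343 members, 148 were in the IDR list, 43.1% (38.01 to 48.4), where 6.38% of all pooled peaks were. Members made up 23% of the 100 strongest pooled peaks and 31% of ranks 101 to 200. Their share was 19% in ranks 201 to 400, 13.5% in ranks 401 to 816 and 5.15% in ranks 817 to 2000, and it was 0.956% beyond rank 4000. Pooled signal ran from 25.9 to 321 over the members with a median of 57.2. In the 148 IDR members the median was 108, against 88.1 in the 668 IDR peaks away from tRNA genes, and in the 195 weaker members it was 37.97, against 31.2 in weaker peaks elsewhere. The −log10 q value stood at its upper end of 3.08 in 125 of the 148 IDR members.

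Most members were found in both replicates. A replicate summit lay within 100 bp of the pooled summit in both lists for 220 members, 64.1%, where this held for 29.9% of all pooled peaks. It held for 142 of the 148 IDR members (95.9%) and for 625 of the 668 other IDR peaks (93.6%), a share that the IDR procedure raises by construction. Among the weaker peaks it held for 78 of 195 members (40%) and for 25.3% of peaks away from tRNA genes. Of the IDR members, 110 (74.3%) were among the 816 strongest peaks of both replicates, where 60.9% of all IDR peaks and 57.9% of those away from tRNA genes were. In the 142 matched IDR members the signal ran from 20.8 to 163 in replicate 1 and from 23.1 to 156 in replicate 2, and Spearman's rho between the replicates was 0.719, and Pearson's r of their log2 signals was 0.706. Over all 220 matched members rho was 0.815, and over the 78 matched weaker members it was 0.186. The points of these correlations share the libraries and their depth, and they are given as a description.

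**Figure D1:**
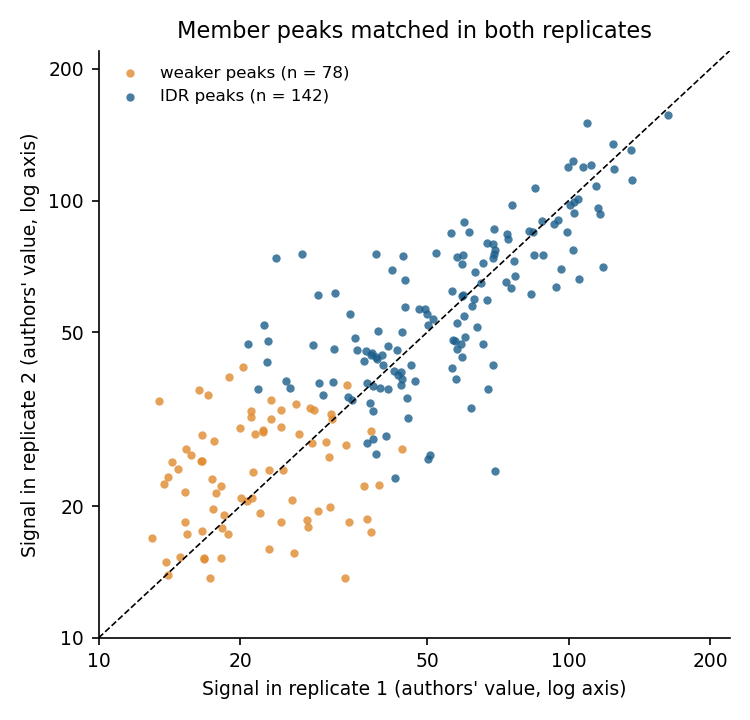
Signal of the 220 member peaks matched in both replicates, with replicate 1 on the horizontal and replicate 2 on the vertical log axis, in the authors' signal value; each point is a peak and the dashed line marks equal values. The 142 IDR peaks spread along the line with a rho of 0.719, and the 78 weaker peaks form a cloud at the low end with a rho of 0.186.

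The 10 strongest members lay at tRNA genes of 9 isotypes. Each also ranked among the strongest in both replicates, which a choice by the signal pooled from them favours. The leucine tRNA gene C04A11.t1 had the strongest (chrX:13665458-13665701), with a signal of 321 in the pooled list, 163 in replicate 1 and 156 in replicate 2, and ranked 14 in all 3 lists. The cysteine tRNA gene C37A2.t1, inside an intron of the cyclin E gene cye-1 and on its strand, had 261, 136 and 130 in the same order. The isoleucine tRNA gene F57F5.t1, with anticodon TAT and a single copy (chrV:12002142-12002263), had 258, 124 and 135. At these genes the replicates gave nearly equal values, while the alanine gene F15G9.t1, in an intron of the hemicentin gene him-4, whose peak also has the alanine gene F15G9.t2 within 300 bp, differed more, with 256 in the pooled list, 109 in replicate 1 and 150 in replicate 2. The lysine gene W03G11.t1 had 245, 136 and 112, and the asparagine gene F41D9.t3, inside sulp-3 on the opposite strand, 242, 125 and 118. The glycine gene M02F4.t1, whose peak has another tRNA gene within 300 bp, had 232, 112 and 121. The glutamate gene C28G1.t1, which overlaps an exon of C28G1.2, had 227, 102 and 123. The isoleucine gene C42D8.t1, with anticodon AAT, had 224, 107 and 119, and the tyrosine gene C02B4.t2, in an intron of the nuclear hormone receptor gene nhr-17, 222, 114 and 108. Their lowest rank was 72 in replicate 1 and 57 in replicate 2. On X lie 8 of these 10, 72 of the 148 IDR members and 45.1% of all tRNA genes.

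Most summits of strong peaks lay inside the gene. In the 148 IDR members the median summit was 19 bp into the gene (interquartile range 6.75 to 46.3 bp from the 5′ end), 98 (66.2%) were inside the gene, 27 were upstream and 23 downstream. Within 50 bp of the 5′ end lay 113 (76.4%), and the farthest upstream was at −76 bp. The 195 weaker members were spread more widely, from −252 to 322 bp, with a median of 30 bp and an interquartile range of −34.5 to 113.5 bp; 63 (32.3%) were inside the gene and 39.5% within 50 bp of its 5′ end. Of these 195, 30 were second summits beside an IDR summit nearest to the same gene, at 199 to 215 bp from it. Their median gap was 202 bp and 0 of the 30 lay inside the gene. Whether this narrow spacing comes from the way the peaks were called was not tested. The other 165 had a median of 23 bp and an interquartile range of −30 to 86 bp, with 38.2% inside the gene and 46.1% within 50 bp of its 5′ end. The A box begins at a median of base 8 of the gene and the B box core at a median of base 53, and the median IDR summit falls between them. The lists do not place a summit that finely. Many intervals have 1 common width with the summit at the centre, as at C37A2.t1 (chrI:6781579-6782018, summit 6781799). Both replicates had a summit within 50 bp of the pooled one at 46.4% of the 343 members. At the edge of the rule, the member farthest from a midpoint was a weaker peak at the threonine gene F14F7.t1, at 287.5 bp with a signal of 32.1, and the nearest peak outside was an IDR peak at the arginine gene C18A11.t2, at 305 bp with a signal of 120.

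**Figure D2:**
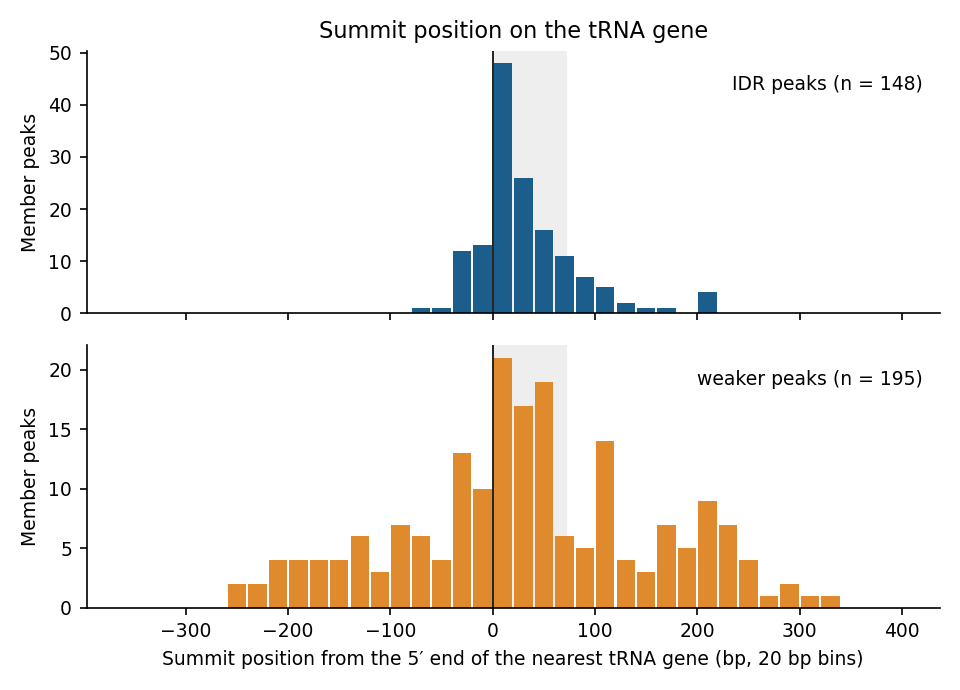
Number of member peaks by the position of the summit relative to the 5′ end of the nearest tRNA gene, in 20 bp bins along the direction of transcription, for the 148 IDR peaks (top) and the 195 weaker peaks (bottom); the grey band spans the median gene length of 72 bp. IDR summits gather in the first part of the gene with a median of 19 bp, and weaker summits spread to both sides.

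Few members could be assigned to another small RNA gene. No member lay within 300 bp of a snoRNA or miRNA gene and 1 lay that close to an snRNA gene. Of the 148 IDR members, 18 were within 300 bp of a protein-coding transcript start and 55 (37.2%) within 1 kb. Some members serve more than 1 gene: 35 of the 343 and 13 of the 148 had at least 2 tRNA midpoints within 300 bp, and there the deposited lists do not tell the genes apart.

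Counted by gene, 327 of the 612 nuclear tRNA genes had a pooled summit within 300 bp, 53.4%, and 158 had an IDR summit, 25.8% (22.5 to 29.4). The 816 strongest peaks of replicate 1 alone marked 144 genes (23.5%) and those of replicate 2 alone 158 (25.8%). The annotation lists another 22 tRNA genes in the mitochondrial genome, where the lists hold no peak. Isotypes were taken from the RefSeq annotation, which assigns 607 of the 612 genes. Anticodons were read from the sequence as the bases of a 7-base loop closed by a 5-bp stem with at least 4 pairs, G-T included. The base before the anticodon had to be T or C. An intron after the base that follows the anticodon was allowed, and was read in 30 genes. The reading matched the annotated isotype in 595 genes. None of the other 17, which include the 5 unassigned genes, had an IDR peak and 3 had a weaker one, where 26.6% of the 595 had an IDR peak.

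All 20 standard isotypes had IDR peaks, and none stood apart from the rest beyond the intervals. The share was highest at alanine and threonine, each with 12 of 34 genes (35.3%, 21.5 to 52.1), and at methionine with 7 of 20 (35%). Glutamate followed with 13 of 41 (31.7%) and cysteine with 4 of 13 (30.8%). Between 20% and 30% lay aspartate (8 of 27), phenylalanine (4 of 14), serine (11 of 39), arginine (12 of 44), proline (11 of 42), glutamine (7 of 27), asparagine (5 of 20), isoleucine (7 of 29), leucine (9 of 39), valine (7 of 31), lysine (10 of 46), tyrosine (4 of 19) and glycine (11 of 55). Tryptophan had 2 of 12 (16.7%) and histidine 2 of 20 (10%, 2.79 to 30.1), the lowest of the standard isotypes, and its interval still overlaps those of all others. The replicates bore out the order only in part: by the 816 strongest peaks of each, alanine stood at 29.4% in replicate 1 and 35.3% in replicate 2, methionine at 20% and 35%, cysteine at 46.2% and 30.8%, and histidine at 10% and 15%. With weaker peaks included, cysteine led with 12 of 13 genes (92.3%), and histidine, with 7 of 20 (35%), and serine, with 15 of 39 (38.5%), were at the low end.

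**Figure D3:**
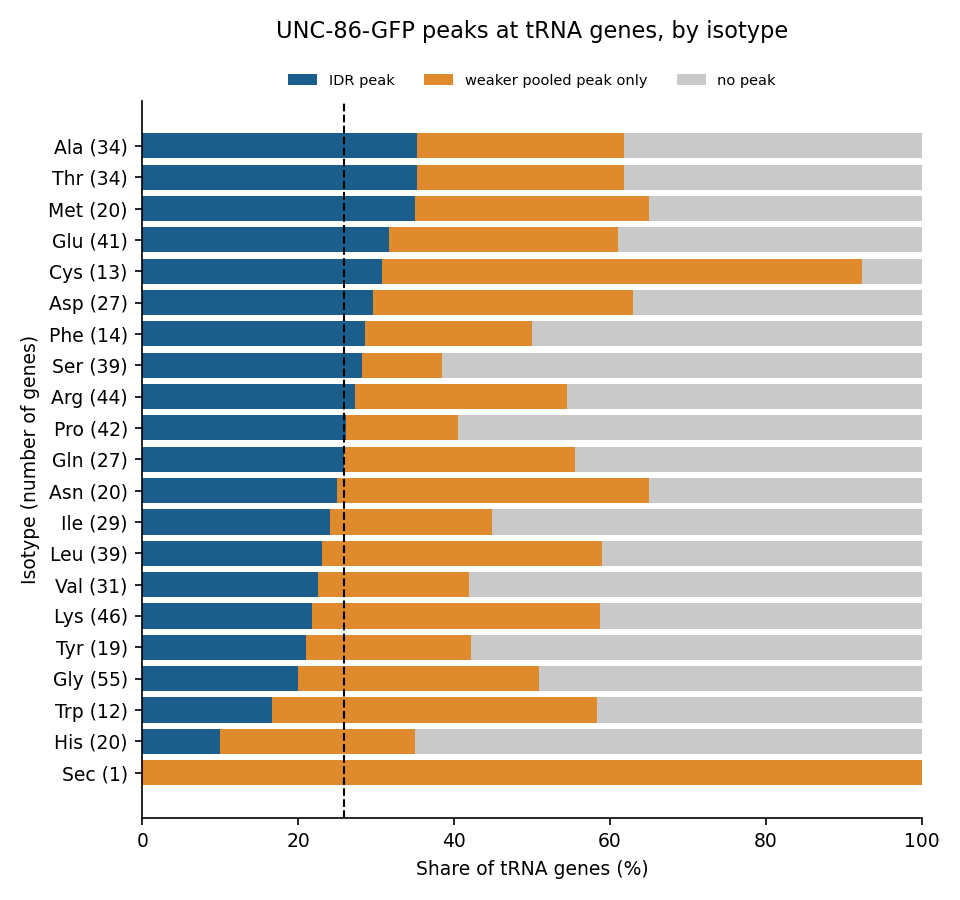
Share of the tRNA genes of each isotype, in percent, with an IDR peak, with a weaker pooled peak only or with no peak, ordered by the first share; the number of genes is in brackets and the dashed line is the share with an IDR peak over all 612 genes, 25.8%. The blue bars run from 35.3% at Ala and Thr to 10% at His, and the single selenocysteine gene has a weaker peak only.

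Each isotype but selenocysteine had a gene with a strong peak. Below the 10 peaks above, the best gene of the remaining isotypes was B0523.t1 for tryptophan, in an intron of fli-1 (signal 217), R04D3.t2 for valine (205), C06G1.t1 for histidine (199), F29C4.t1 for arginine, in an intron of the collagen gene col-99 (196), R01H5.t1 for threonine (186), ZC455.t1 for serine (185), T15B12.t1 for methionine (178), R04A9.t1 for glutamine (174), ZK899.t1 for proline (172), T28B4.t1 for phenylalanine (159) and F38G1.t2 for aspartate, in an intron of egl-17, a gene of a fibroblast growth factor (155). The lowest of these ranked 136 in the pooled list. K11H12.t1, the one selenocysteine tRNA gene, which serves the insertion of selenocysteine at UGA codons, had a weaker peak only, with a signal of 27.4 and rank 10337 in the pooled list. It had a signal of 13.1 in replicate 1, no match in replicate 2 and its summit 187 bp upstream of the gene.

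Methionine has 2 kinds of tRNA, the initiator that starts translation and the elongator. The 9 initiator genes, recognised by the bases at the start of the gene, are identical to each other, and 4 had an IDR peak and 8 any pooled peak, the strongest at T15B12.t1. Of the 11 other methionine genes 3 had an IDR peak and 5 any peak. In replicate 1 the initiator genes among its 816 strongest peaks were 22.2% and in replicate 2 44.4%, so the replicates differ on the initiator genes. Of anticodons with at least 4 genes, Pro-CGG had the highest share (3 of 4), while Pro-TGG, with 31 genes, had 5. Glu-TTC had 7 of 17 and Glu-CTC 6 of 24. With so few genes the Wilson intervals are wide, reaching 95.4% at Pro-CGG and 32.6% at Pro-TGG at their upper ends.

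The X chromosome carries 276 of the 612 genes, and 78 of them had an IDR peak, 28.3% (23.3 to 33.8), where 80 of the 336 autosomal genes had one, 23.8% (19.6 to 28.6). Chromosome III had the highest share, 22 of 64 (34.4%, 23.9 to 46.6), and chromosome V the lowest, 12 of 78 (15.4%, 9.03 to 24.99). Chromosomes I, II and IV had 24.2%, 21.1% and 25.4%. In the replicates X stood at 26.8% and 30.4% and the autosomes at 20.8% and 22.0%, and the intervals of X and of the autosomes overlap.

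Place inside a protein-coding gene made little difference to the share in the IDR list. Of the 283 tRNA genes inside introns, 70 had an IDR peak (24.7%, 20.1 to 30.1), and of the 319 between protein-coding genes 84 had one (26.3%, 21.8 to 31.4). The gap was wider in the replicates, with 20.5% and 26.0% in replicate 1 alone and 23.7% and 27.3% in replicate 2 alone. Within introns, genes on the strand of the host had 40 of 160 (25%) and genes on the opposite strand 30 of 123 (24.4%). The 10 genes that overlap an exon had 4. Distance to a protein-coding transcript start did not separate the genes either: 25% of those within 1 kb of one and 26.3% of the others had an IDR peak.

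Single tRNA genes had peaks more often than genes in clusters. With neighbours within 1 kb joined, the 612 genes form 480 groups, of which 98 hold more than 1 gene and 230 genes in all. Of the 382 single genes 117 had an IDR peak, 30.6% (26.2 to 35.4), and of the 230 clustered genes 41, 17.8% (13.4 to 23.3). The shares were 27.5% and 17.0% with replicate 1 alone and 29.8% and 19.1% with replicate 2 alone. On X they were 37.2% and 18.3%, and on the autosomes 26.6% and 17.2%. Among the 479 genes whose 300-base flanks are unique in at least 90% of their 30-base words they were 32.2% and 15.6%. Among those with flanks 50% to under 90% unique the order was the other way, with 8 of 40 single genes (20%) and 19 of 82 clustered genes (23.2%). The labels and file headers used here do not say where reads of repeats were placed, and none of the 11 genes with flanks under 50% unique had a peak of any kind.

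**Figure D4:**
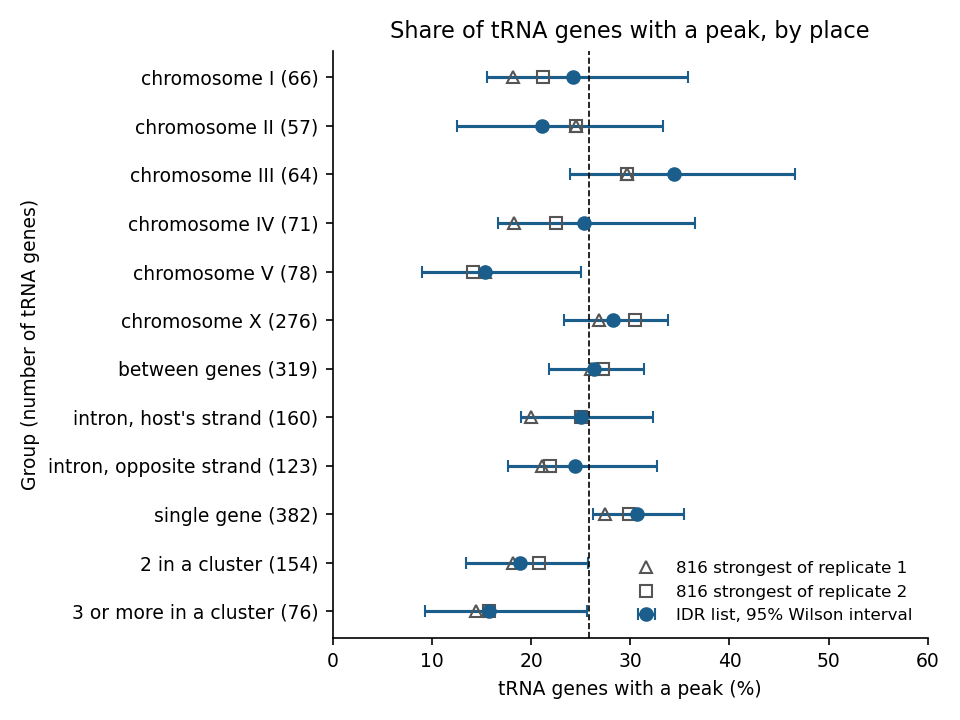
Share of tRNA genes with a peak, in percent, by chromosome, place and clustering; filled circles with bars are the IDR list with 95% Wilson intervals, open triangles the 816 strongest peaks of replicate 1, open squares those of replicate 2, and the dashed line is the share over all genes. The circle of single genes, at 30.6%, lies to the right of those of genes in clusters in the IDR list and in both replicates.

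Within clusters, one summit often stood for neighbours. Of the 77 clusters of 2 genes, 58 had no IDR peak, 9 had one at 1 gene, and 10 had one within 300 bp of both genes, each time a single shared summit. The largest clusters hold 6 genes. F28H6.t2 to F28H6.t7, all histidine (chrX:14135045-14137010), had no pooled peak, and a median of 24.7% of their flanking words are unique. The 6 genes of F22F1.t2 to F22F1.t7, of serine, aspartate, methionine and isoleucine (chrX:8154445-8156707), had 3 with an IDR peak and a median of 88.4% unique words. Of the next in size, the 5 arginine and cysteine genes of K01A12 had weaker peaks at 4 and the 5 glutamine genes of H08J11 IDR peaks at 2. These are counts of genes, and summits are shared among them. The IDR summits at H08J11.t3 and at F22F1.t5 each have 2 tRNA midpoints within 300 bp. The weaker summits at K01A12.t4 and K01A12.t2 have 3 each.

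The B box core did not separate the genes with peaks from the others. Genes that matched the A box consensus had a pooled peak more often than the few that did not. The B box core was in 441 genes, of which 25.2% had an IDR peak, and of the 171 genes without the exact core 27.5% had one. In the relaxed form GTTCNANNC the core was in 587 genes, and the shares were 25.6% with it and 32% of the 25 without. The A box consensus was matched in 562 genes, of which 26.5% had an IDR peak, against 18% of the other 50, with an interval of 9.77% to 30.8%. Any pooled peak was at 313 of the 562 (55.7%) and at 14 of the 50 (28%). A missing match does not show that a gene lacks an A box, as the serine gene Y51H7BR.t1, 1 of 11 identical copies, is among the 50. These 50 genes had a median of 1 copy, and of the 143 genes with 1 copy 39.2% had a pooled peak. The share was 56.04% of the 182 genes with 2 to 10 copies and 58.9% of the 287 with over 10. An IDR peak was at 16.1% (10.96 to 22.98) of the genes with 1 copy. It was at 29.7% (23.5 to 36.7) of those with 2 to 10 copies and at 28.2% (23.3 to 33.7) of those with over 10. The part of copy number was not tested. In windows of 100 bp to each side of the summit, searched on both strands, the B box core was in 68.2% of IDR members and 43.1% of weaker members, as the tRNA genes lie there, in 4.49% of the other IDR peaks and in 3.10% of all pooled peaks.

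Words of the homeodomain class were in few summit windows, both at members and at other peaks. The core TAATTA was in 7 of the 148 summit windows of IDR members, 4.73%, and in 6.15% of those of weaker members. It was in 6.74% of those of other IDR peaks and in 9.25% of all pooled peaks, on either strand. The octamer ATGCAAAT, a site of POU factors, was in 1 of the 148 windows and in 1.54% of weaker members. In other IDR peaks it was in 1.20% and in all pooled peaks in 1.74%. The repeat GAGAGA was in 31.8% of IDR members, 16.4% of weaker members, 28.9% of other IDR peaks and 15.6% of all pooled peaks. The tRNA genes in the members' windows have a median GC content of 58.3%, and its part in these shares was not tested. A missing match says only that these letters are not in the window.

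Identical tRNA genes differed in whether they had a peak. The 612 genes have 200 distinct sequences, and 32 sequences with at least 5 copies account for 402 genes. In 31 of the 32 families some copies had an IDR peak and in none did all, with shares from 0% to 60%. The largest family, the 29 glycine genes with anticodon TCC, had 7 genes with an IDR peak, with signals from 67.5 to 232, and 10 genes with no peak. The 25 lysine genes with anticodon CTT had 7 with an IDR peak, from 64.8 to 245. The one family without an IDR peak was of 7 leucine genes with anticodon AAG. In the cysteine family each of the 12 genes had a pooled peak and 4 an IDR peak.

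The flank before the gene differed between genes with and without a peak, in a comparison chosen after the data had been seen. The GC content of the 60 bases upstream had a median of 46.7% (interquartile range 43.3 to 53.3) at the 158 genes with an IDR peak, 43.3% at the 169 with a weaker peak only and 38.3% (33.3 to 46.7) at the 285 with none. The gene itself had a median of 58.3% in all 3 sets, the 60 bases after it 28.3%, 28.3% and 26.7%, and the stretch from 300 to 61 bases upstream 36.7%, 36.7% and 35.8%. In bins of 10 bases, genes with an IDR peak and with none stood at 43.4% and 36.8% between 100 and 91 bases upstream, at 46.6% and 36.1% between 70 and 61, at 50% and 37.8% between 60 and 51, and at 48.0% and 46.1% in the last 10 bases.

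The share of genes with an IDR peak was higher at higher upstream GC content. It was 5 of 120 genes (4.17%, 1.79 to 9.38) under 35%, 13.2% from 35% to under 40%, 26.2% from 40% to under 45%, 40.2% from 45% to under 50%, and 60 of 147 (40.8%, 33.2 to 48.9) at 50% or more. The lowest and the highest class stood at 5% and 36.7% with replicate 1 alone, and at 4.17% and 40.1% with replicate 2 alone. Among genes with flanks at least 90% unique they stood at 1.27% and 42.1%. In 29 of the families of identical genes, copies with an IDR peak and copies with none were both present. The median upstream GC content was higher at the copies with an IDR peak in 27 of these 29 and equal in 2. Among the 158 genes with an IDR peak the GC content did not follow the signal (Spearman's rho −0.11, as a description across genes that share the libraries). GC content also bears on how well fragments are amplified and sequenced, and its part in these shares was not tested.

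One word, CTCT, was more frequent upstream of the genes with peaks, and was picked from all words of 4 bases after their frequencies had been seen. On either strand, so as CTCT or AGAG, it was in the 60 upstream bases of 116 of the 158 genes with an IDR peak (73.4%), 46.2% of those with a weaker peak, 29.5% of those with none and 31.5% of windows of the same length before 19973 protein-coding genes. The protein-coding windows are not matched for base content, with a median GC of 31.7% against 46.7% at the 158 genes. CTCT was not counted at IDR peaks away from tRNA genes. The longer GAGAGA, which holds AGAG, was in 28.9% of their summit windows and in 31.8% of those of IDR members. Of the 278 tRNA genes with the word 41.7% had an IDR peak (36.1 to 47.6), and of the 334 without it 12.6% (9.44 to 16.6). These shares were 37.8% and 11.7% with replicate 1 alone and 39.6% and 14.4% with replicate 2 alone. The word was picked on these genes and holds G or C itself, and its part beside GC content was not tested. By class of GC content the shares were 57.1% of 84 genes with the word and 19.0% of 63 without it at 50% GC or more, and 38.3% of 60 and 14.5% of 62 from 40% to under 45%. Under 35% the shares were 5% of 20 and 4% of 100. Among families of identical genes, the share with an IDR peak was higher in the copies with the word in 28 of 32, equal in 1 and lower in 3. Single genes had the word more often (51.3%) than clustered genes (35.7%). Among genes with the word 47.4% of single and 28.0% of clustered genes had an IDR peak, and among genes without it 12.9% and 12.2%. The histidine copies printed above follow the word only loosely, since F28H6.t2 and C49F5.t1 hold it and have no IDR peak.

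**Figure D5:**
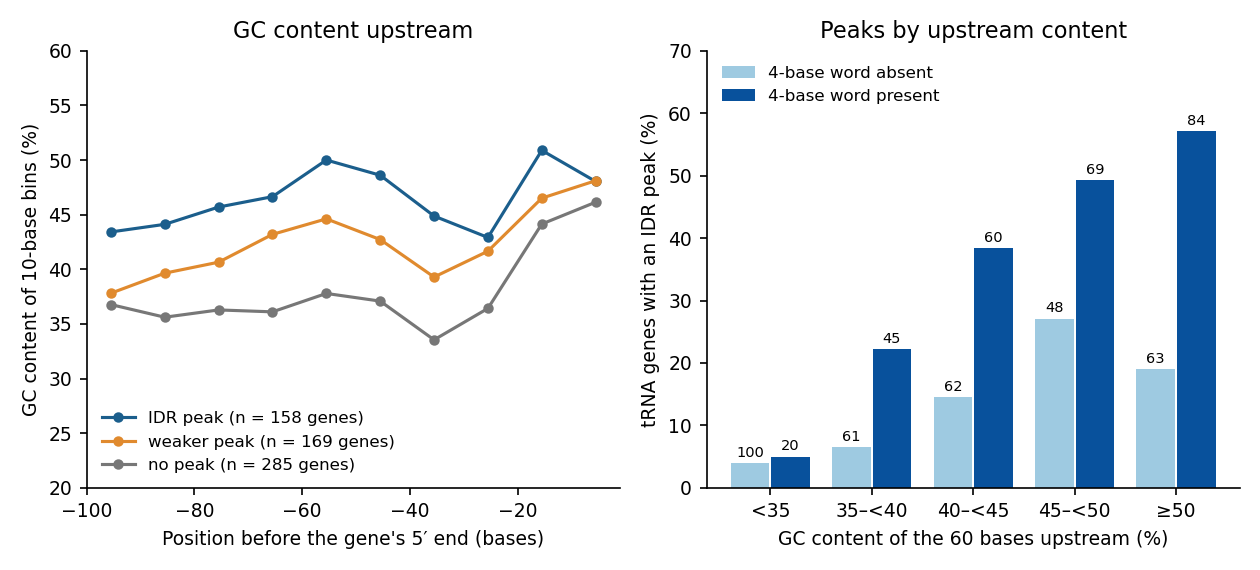
Left, GC content in percent of 10-base bins over the 100 bases before the 5′ end, averaged over genes with an IDR peak, a weaker peak only or no peak. Right, share of tRNA genes with an IDR peak, in percent, by the GC content of the 60 upstream bases, without (light) and with (dark) the 4-base word in those bases on either strand; numbers are genes per bar. In the left panel the line of genes with an IDR peak is the highest in 9 of 10 bins, and in the right panel the dark bar exceeds the light one in each class, with 5% against 4% in the lowest.

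Other genes of the polymerase III system were looked up from a list that names RNA genes it transcribes and its factors. Of the 13 names 12 were found in the annotation, and 5 had a pooled peak and 2 an IDR peak. For the protein genes of the list, the comparison is that 4.07% of protein-coding genes had an IDR summit and 29.1% a pooled summit within 1 kb of a transcript start. It does not hold for the RNA genes, where distance was taken to the gene midpoint. None of the protein genes had an IDR peak. Both genes with IDR peaks encode catalytic RNAs: rpr-1, the RNA of RNase P, which trims the 5′ end of tRNA precursors (signal 173, rank 54 in replicate 1 and 170 in replicate 2), and mrpr-1, the RNA of RNase MRP (signal 129, ranks 393 and 132). The Y RNA gene yrn-1 had a weaker peak of signal 28.9. Of the protein genes, rpc-11, of a polymerase III subunit, and tbp-1, of the TATA-binding protein, had weaker peaks of 40.7 and 30.2. The polymerase subunit genes rpc-1 and rpc-2, the TFIIIC genes tftc-1, tftc-3 and tftc-5, brf-1 of TFIIIB and the repressor gene mafr-1 had no pooled summit within 1 kb. The 16 genes named rrn-4, which encode 5S ribosomal RNA and were added after the data had been seen, had no pooled peak either, and they are copies of a repeat.

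The genes of tRNA processing had no IDR peak. Of 9 names 8 were found, and 5 had a weaker peak. These were clpf-1, of an RNA kinase (signal 46.8), xpo-3, of a tRNA exporter (39.6), rtcb-1, of the ligase that joins tRNA exons (38.7), pus-1, of a pseudouridine synthase (29.9), and popl-5, of a subunit of RNase P and MRP (29.0). The tRNA 3′ processing gene hoe-1 and the subunit genes popl-1 and popl-4 had none. The share with any pooled peak, 5 of 8, was over 8 genes only, and at the protein-coding genes as a whole it was 29.1%.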

How the data were processed

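Deposited peak lists in ce11 were used: the IDR list, the pooled peaks-and-background list and 1 list per replicate. The signal value and the −log10 q value of each peak are the authors', made with a control alignment per the file headers. Which aligner, peak caller and IDR threshold were used, and how reads of repeats were treated, was not found in the labels or headers. Lists in ce10 were not used. Summits are the start plus the summit offset, and positions are printed 1-based. tRNA genes came from Ensembl release 115 (WBcel235), isotypes and sequence from RefSeq of the same assembly. The finding of members and the reading of anticodons were tested on simulated data. Members and gene lists were chosen with earlier results of these data known. Named are the 10 strongest members, the strongest gene per isotype, the largest clusters, the peaks at the edge of the rule, selenocysteine and initiator methionine genes and 2 gene lists, and others by what the comparison singled out. No test was run, as there is 1 group. Alternatives changed the distances, the peak list and the genes counted. The work used matplotlib 3.10.9, SciPy 1.17.1, pandas 2.3.3 and numpy 2.4.6 under Python 3.11.15.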

Additional observations from a re-analysis of the deposited data

How the results depend on the processing

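Of 72 recomputed values over 17 results, 51 stayed within the main interval, or for counts within 1.5 times. At tRNA genes lay 353 of the 17498 peaks of replicate 1 and 337 of the 18470 of replicate 2. The pooled list, which is shorter, had 343 of 12784. All shares with a single replicate stayed within the main intervals. With the 408 strongest IDR peaks the shares were lower by construction: 16.7% of all genes, 21.0% on X, 13.8% in introns, 17.0% with the B box core, 19.1% of single and 12.6% of clustered genes, 26.5% at upstream GC of 50% or more, 28.4% with CTCT and 6.89% without. Identical sequences were also counted once, as having a peak if any copy had one. The shares were then higher, 33.5% of all, 44.3% on X, 36.4% in introns and 35.3% with the B box core. Summits within 100 bp marked 42.2% of genes with any peak, and the median signal was then 71.1. Matching replicate summits within 50 bp left 46.4% of members and a rho of 0.864, and within 200 bp 77.0% of members. In IDR members alone rho was 0.719. With unique flanks, which like the results on clusters, GC content and CTCT were chosen once the data had been seen, the share under 35% GC was 1.27%. With a window of 100 bases the share at 50% GC or more was 53.3%. No paired analysis was possible because there is 1 group. Depth is unknown, so a missing peak does not show missing binding, and identical genes are resolved only by their flanks.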
